A study of Mus musculus with 8 samples.

Results

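The matrix metalloproteinases (MMPs) *Mmp8*, *Mmp12*, *Mmp13*, *Mmp14* and *Mmp19* and the tissue inhibitors of metalloproteinases *Timp1*, *Timp2* and *Timp3* were followed in RNA of mouse bone marrow-derived macrophages (BMDMs). These 8 genes, 5 proteases and 3 inhibitors, were listed by symbol among the 50615 genes of the expression table, with earlier results of these data known. All 8 were among the 17625 genes with enough counts to be tested. Cells from C57BL/6 mice with a floxed *Ncoa6* gene (*Ncoa6* fl/fl, called *Ncoa6*-sufficient) were compared with cells from *Ncoa6* fl/fl LysM CRE mice (called *Ncoa6*-KO), in which Cre recombinase, made from the lysozyme locus, cuts out floxed sequence of *Ncoa6* in cells of the myeloid line. Bone marrow was cultured for 6 days in M-CSF (20 ng/ml). The macrophages then stayed in medium alone (unstimulated), or received 100 ng/ml LPS (4 h) followed by 200 µg/ml monosodium urate (MSU) crystals (2 h), the stimulus. No group received LPS or MSU by itself, so the effects of the 2 agents cannot be told apart. The 4 groups comprised 2 libraries each, made from different mice and numbered 1 and 2.

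MMPs are zinc-dependent endopeptidases that cut collagens, elastin and other matrix proteins, and also cytokines, chemokines and cell surface proteins. Most are secreted as inactive proenzymes, whereas some are held at the cell membrane, and they are controlled by transcription, by cleavage of the propeptide and by the TIMPs, which block the active site. Macrophages are a source of several MMPs in inflamed tissue, and many MMP genes respond to LPS or cytokines through AP-1 and NF-κB.

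The libraries held between 25281955 and 33673552 expected counts, and values below are normalized counts, that is, counts scaled to a common library size, unless they are given per length. *Ncoa6*, counted over the whole gene, ran from 1173 to 1515 normalized counts in the 4 *Ncoa6*-sufficient libraries and from 526 to 784 in the 4 *Ncoa6*-KO libraries, with log2 fold changes of -1.05 with medium alone (adjusted p = 0.00236, edgeR) and -1.18 with LPS + MSU (adjusted p = 0.00189, edgeR). All 10 macrophage markers were present, and in each culture condition 3 of the 10 differed between genotypes. The largest share of their sum was *Lyz2*, the lysozyme gene at whose locus Cre is inserted. Without *Lyz2* the other 9 summed to between 199121 and 203756 normalized counts in unstimulated *Ncoa6*-sufficient libraries and between 155002 and 180376 in unstimulated *Ncoa6*-KO libraries. In stimulated libraries the sums were 305789 to 321233 and 256468 to 278355. *Adgre1*, *Csf1r*, *Fcgr1* and *Itgam* were lower in each *Ncoa6*-KO library than in each *Ncoa6*-sufficient one under both culture conditions. *Cd68* and *Mrc1* overlapped between genotypes under both. *Mertk* was lower in this way only with LPS + MSU, and *Cd14* only with medium alone. *Cx3cr1* overlapped with medium alone and was higher in *Ncoa6*-KO libraries with LPS + MSU. The part of these marker levels in the genotype differences below was not tested. The 12 stromal markers set the *Ncoa6*-KO libraries apart from each other. Their sum in CPM was 15.5 and 48.6 in unstimulated *Ncoa6*-KO libraries and 25.8 and 69.4 in stimulated ones. CPM are counts scaled to the effective library size, which is the library total multiplied by its TMM factor. Under both culture conditions the *Ncoa6*-KO library numbered 1 had the lower value. *Ncoa6*-sufficient libraries lay between 31.4 and 34.8 unstimulated and between 56.6 and 65.9 stimulated. None of the 12 stromal markers was at 0 in all 8 libraries, and none differed between genotypes at an adjusted p under 0.05. In bulk RNA of this kind, fewer cells of a type and less RNA per cell cannot be told apart.

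The promoters of the members differ in the short motifs they hold. They are shown because MMP promoters are commonly sorted by whether they carry an AP-1 motif near a TATA box or a GC-rich start. The RefSeq promoter table (GRCm38.p6) held a 300 base window, from 250 bases before to 50 bases after the start, for 7 of the 8 members (all but *Mmp19*), with 2 starts for *Mmp12*. Windows were searched on both strands for an AP-1 motif (TGANTCA, present in 7.81% of all 32851 windows), a TATA motif (TATAAA, 13.6%) and a GC box (GGGCGG, 35.7%). The 120 bases before the start are given 5′ to 3′ on the gene's strand, with matches in capitals.
*Mmp13*, chr9:7272394-7272513, plus strand: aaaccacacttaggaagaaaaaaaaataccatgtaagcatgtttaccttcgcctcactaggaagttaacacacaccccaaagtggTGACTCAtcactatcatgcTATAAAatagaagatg
*Mmp12*, second start, chr9:7347254-7347373, plus strand: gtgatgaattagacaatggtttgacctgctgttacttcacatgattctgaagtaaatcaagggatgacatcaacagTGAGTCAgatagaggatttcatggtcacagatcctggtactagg
*Mmp14*, chr14:54431478-54431597, plus strand: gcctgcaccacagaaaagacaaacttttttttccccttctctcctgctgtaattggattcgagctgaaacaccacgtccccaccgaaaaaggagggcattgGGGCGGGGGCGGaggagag
*Timp1*, chrX:20870046-20870165, plus strand: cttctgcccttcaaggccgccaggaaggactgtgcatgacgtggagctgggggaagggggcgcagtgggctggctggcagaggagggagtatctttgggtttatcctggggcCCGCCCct

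The *Mmp13* window held the AP-1 motif 35 bases and the TATA motif 16 bases before the start. The window of the second *Mmp12* start held an AP-1 motif 44 bases before it and a TATA motif 5 bases after it, and that of the first *Mmp12* start held none of the 3 motifs. The windows of *Mmp14*, *Timp1*, *Timp2* and *Timp3* held GC boxes and neither of the other motifs, with 2 adjoining GC boxes in *Mmp14*. In the *Mmp8* window the single match was a TATA motif read on the opposite strand and lying across the start. These matches describe letters and were not tested for binding.

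*Mmp13*, or collagenase 3, cuts fibrillar collagens. It lies on chromosome 9 (GRCm38, 7272514-7283331, plus strand). With medium alone its normalized counts were 700 and 568 in *Ncoa6*-sufficient libraries and 374 and 421 in *Ncoa6*-KO libraries. With LPS + MSU they were 56437 and 36038 in *Ncoa6*-sufficient libraries and 17435 and 20540 in *Ncoa6*-KO libraries. The stimulated libraries of both genotypes stood far above the unstimulated ones, and under both culture conditions each *Ncoa6*-KO library lay below each *Ncoa6*-sufficient library.

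LPS + MSU raised *Mmp13* by 6.19 ± 0.24 on the log2 scale in *Ncoa6*-sufficient BMDMs, 72.9-fold (n = 2 against 2, adjusted p = 3.66e-09, edgeR). Here and below, ± after a log2 fold change gives the SE from the fit of all 8 libraries. In *Ncoa6*-KO BMDMs the rise was 5.58 ± 0.23, 47.8-fold (adjusted p = 6.88e-09, edgeR). Among stimulated BMDMs *Mmp13* was 2.44-fold lower in *Ncoa6*-KO cells, with a log2 fold change of -1.28 ± 0.19 (95% interval -1.71 to -0.86, adjusted p = 0.00736, edgeR). The first stimulated *Ncoa6*-sufficient library was the highest of the 4. Without it the log2 fold change was -0.94 (adjusted p = 0.0506), and without the second *Ncoa6*-KO library with LPS + MSU it was -1.41 (adjusted p = 0.0665). In unstimulated cells the log2 fold change was -0.68 ± 0.20 (adjusted p = 0.150, edgeR), which does not pass the threshold. DESeq2 gave -0.66 (adjusted p = 0.0165), and 5 of the 10 alternatives that left out no single library passed the threshold there.

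*Mmp8*, or neutrophil collagenase, is best known as a granule enzyme of neutrophils. It lies on chromosome 9 (GRCm38, 7558456-7568485, plus strand). Its normalized counts were 139 and 156 without stimulus and 155 and 146 with LPS + MSU in *Ncoa6*-sufficient libraries. In *Ncoa6*-KO libraries they were 131 and 203 without stimulus and 90.2 and 154 with LPS + MSU. All 4 groups overlapped, and the second *Ncoa6*-KO library was the higher under both culture conditions. The log2 fold change between genotypes was 0.17 ± 0.25 with medium alone (adjusted p = 0.859, edgeR) and -0.31 ± 0.27 with LPS + MSU (adjusted p = 0.627, edgeR). The stimulus changed it by 0.03 ± 0.26 in *Ncoa6*-sufficient cells (adjusted p = 0.926, edgeR) and by -0.45 ± 0.26 in *Ncoa6*-KO cells (adjusted p = 0.177, edgeR). The second of these values depended on the processing and on single libraries. It passed the threshold when libraries were scaled to their totals alone (-1.08, adjusted p = 0.00444) and with no filter on low counts (-0.47, adjusted p = 0.0388). It also passed without the second stimulated *Ncoa6*-KO library (-0.87, adjusted p = 0.0352) and without the first unstimulated one (-0.74, adjusted p = 0.0407), and with 1 library left out it ran from -0.87 to -0.10. The 12 neutrophil markers were unlike each other. *Ly6g* was at 0 in 7 of 8 libraries with 1.39 normalized counts in the other, and *Elane*, *Retnlg* and *Cxcr2* stayed at or under 4.39, whereas *Ngp*, *Ltf*, *S100a8* and *S100a9* lay between 59.2 and 384. The highest of the 12 in every library was *Csf3r*, the G-CSF receptor, which went from 733 and 775 without stimulus to 2724 and 3006 with it in *Ncoa6*-sufficient cells, and from 350 and 617 to 1125 and 1806 in *Ncoa6*-KO cells. The summed markers did not overlap between genotypes, although none of the 12 was called. Without stimulus the sums were 41.0 to 44.1 CPM in *Ncoa6*-sufficient and 29.8 to 36.3 in *Ncoa6*-KO cells. With LPS + MSU they were 119 to 136 and 65.8 to 91.2. Their largest part, *Csf3r*, was separated in the same way under both culture conditions. With LPS + MSU *Ngp*, *Ltf*, *S100a8* and *S100a9* each overlapped between genotypes. Without stimulus *S100a8* overlapped, *Ngp* was lower in *Ncoa6*-KO libraries, and *Ltf* and *S100a9* were higher. The part of neutrophil markers in the *Mmp8* values was not tested.

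*Mmp12*, or macrophage elastase, cuts elastin and many other matrix proteins. It lies on chromosome 9 (GRCm38, 7344381-7369499, plus strand). In *Ncoa6*-sufficient libraries its normalized counts were 22095 and 25418 without stimulus and 25889 and 34070 with LPS + MSU. In *Ncoa6*-KO libraries they were 22579 and 27342 without stimulus and 31539 and 41370 with LPS + MSU. The genotypes overlapped under both culture conditions, whereas the stimulated libraries lay above the unstimulated ones in each genotype. The stimulus effect was 0.34 ± 0.17 on the log2 scale in *Ncoa6*-sufficient cells (adjusted p = 0.125, edgeR) and 0.55 ± 0.17 in *Ncoa6*-KO cells (adjusted p = 0.0205, edgeR). In *Ncoa6*-sufficient cells 6 of 18 alternatives called a rise, among them DESeq2 (0.45, adjusted p = 0.0128) and the fit without the first stimulated *Ncoa6*-sufficient library (0.57, adjusted p = 0.0338). The sign of both effects rests on the scaling. When libraries were scaled to their totals without TMM factors, the effects were -0.33 (adjusted p = 0.127) and -0.09 (adjusted p = 0.690). The call in *Ncoa6*-KO cells was also lost without the second *Ncoa6*-KO library with LPS + MSU (0.34, adjusted p = 0.194) and without the first with medium alone (0.42, adjusted p = 0.122). Between genotypes the log2 fold change was 0.07 ± 0.17 with medium alone (adjusted p = 0.929, edgeR) and 0.28 ± 0.17 with LPS + MSU (adjusted p = 0.453, edgeR). In its exons *Mmp12* overlaps *Mmp1b* of the opposite strand by 157 bp, and *Mmp1b* had at most 1 count in any library.

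*Mmp14*, or MT1-MMP, is anchored in the membrane and activates pro-MMP2 in a complex with TIMP2. It lies on chromosome 14 (GRCm38, 54431612-54445364, plus strand). With medium alone its normalized counts were 624 and 466 in *Ncoa6*-sufficient libraries and 177 and 138 in *Ncoa6*-KO libraries. With LPS + MSU they were 12969 and 11437 in *Ncoa6*-sufficient libraries and 8048 and 6653 in *Ncoa6*-KO libraries. The genotypes were separated under both culture conditions, and *Mmp14* was the 1 member called lower in *Ncoa6*-KO cells under both.

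In unstimulated *Ncoa6*-KO BMDMs *Mmp14* was 3.45-fold lower, with a log2 fold change of -1.78 ± 0.18 (95% interval -2.18 to -1.39, adjusted p = 0.00169, edgeR), and this call held under all 18 alternatives. With LPS + MSU it was 1.66-fold lower, with a log2 fold change of -0.73 ± 0.15 (95% interval -1.07 to -0.39, adjusted p = 0.0287, edgeR). The second call was lost without either *Ncoa6*-sufficient library with LPS + MSU (adjusted p = 0.206 and 0.0504) and without the second *Ncoa6*-KO one (adjusted p = 0.250). LPS + MSU raised *Mmp14* 22.3-fold in *Ncoa6*-sufficient cells (4.48 ± 0.18 on the log2 scale, adjusted p = 4.34e-09, edgeR) and 46.4-fold in *Ncoa6*-KO cells (5.53 ± 0.19, adjusted p = 1.83e-09, edgeR). The difference between these 2 effects was 1.05 ± 0.23 on the log2 scale (95% interval 0.54 to 1.57), with an unadjusted p of 9.33e-04 and an adjusted p of 0.365 in edgeR's fit, which does not pass the threshold. DESeq2 gave 1.00 for this difference with an adjusted p of 0.0104, and over all alternatives the adjusted p ran from 1.59e-06 to 1.00.

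*Mmp19* is a secreted MMP that cuts basement membrane proteins. In *Ncoa6*-sufficient libraries its normalized counts were 662 and 585 without stimulus and 216 and 213 with LPS + MSU. In *Ncoa6*-KO libraries they were 625 and 442 without stimulus and 206 and 208 with LPS + MSU. *Mmp19* was the 1 protease of the 5 called lower with the stimulus in the main fit. Its log2 fold changes were -1.54 ± 0.16 in *Ncoa6*-sufficient cells (adjusted p = 1.07e-05, edgeR) and -1.37 ± 0.17 in *Ncoa6*-KO cells (adjusted p = 3.13e-05, edgeR). Both calls held under all 18 alternatives. The log2 fold change between genotypes was -0.22 ± 0.15 with medium alone (adjusted p = 0.614, edgeR) and -0.05 ± 0.18 with LPS + MSU (adjusted p = 0.926, edgeR). On chromosome 10 (GRCm38, 128790910-128800824, plus strand) *Mmp19* shares 789 bp of exon with *Tmem198b* of the opposite strand, which had 75.8 to 534 counts per library. The strand setting of the counting is not given in the sources used here.

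**Figure D1:**
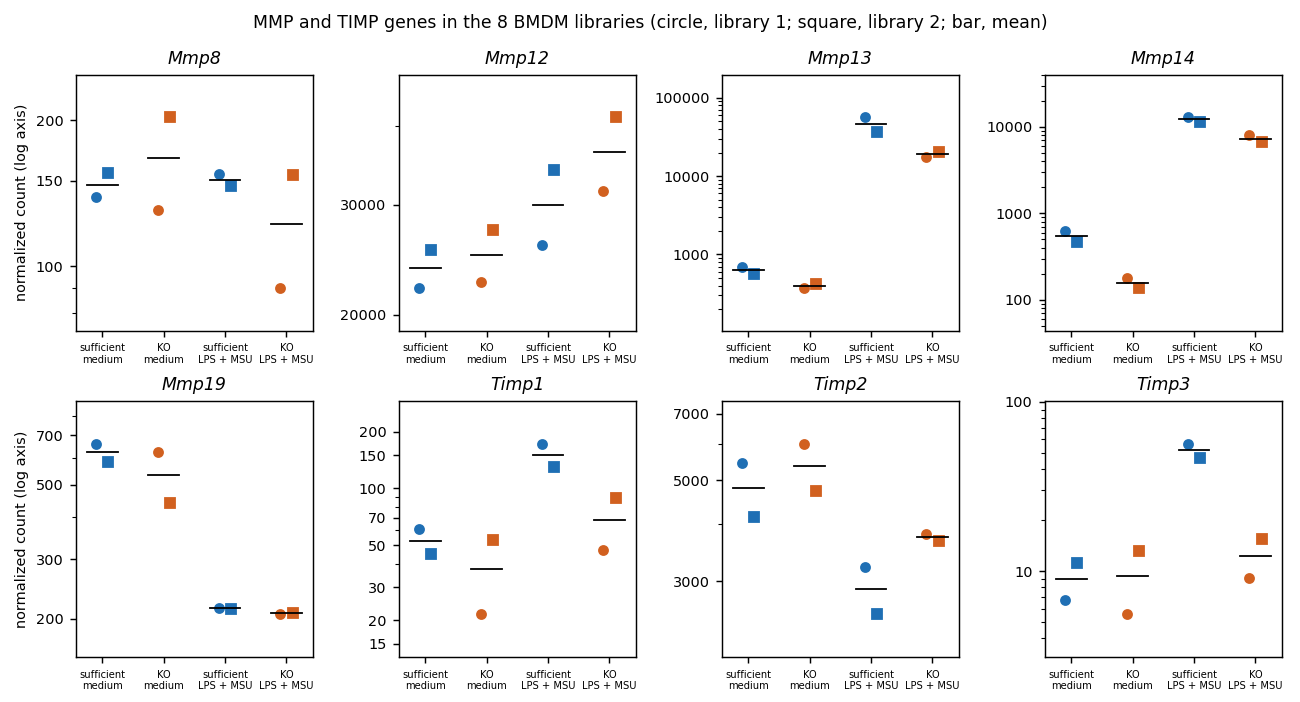
Normalized counts (log axis, its range set for each gene) of the 8 genes in the 8 libraries, with culture condition and genotype on the x axis (blue, *Ncoa6*-sufficient; orange, *Ncoa6*-KO; circle, library 1; square, library 2; bar, mean of 2 libraries). *Mmp13* and *Mmp14* stand far higher with LPS + MSU in both genotypes, and *Timp3* reaches 46.8 or more only in the 2 stimulated *Ncoa6*-sufficient libraries.

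*Timp1*, a secreted inhibitor that is commonly induced by inflammatory stimuli, varied between *Ncoa6*-KO libraries of the same group. It lies on chromosome X (GRCm38, 20870166-20874735, plus strand). Its normalized counts were 60.8 and 44.7 without stimulus and 173 and 129 with LPS + MSU in *Ncoa6*-sufficient libraries. In *Ncoa6*-KO libraries they were 21.6 and 53.6 without stimulus and 47.0 and 89.5 with LPS + MSU. The stimulated *Ncoa6*-KO libraries lay below the stimulated *Ncoa6*-sufficient ones, whereas the genotypes overlapped with medium alone.

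LPS + MSU raised *Timp1* 2.85-fold in *Ncoa6*-sufficient cells (1.51 ± 0.39 on the log2 scale, adjusted p = 0.00596, edgeR), a call lost with library totals (0.84, adjusted p = 0.0778) and without the second unstimulated *Ncoa6*-sufficient library (1.32, adjusted p = 0.0545). In *Ncoa6*-KO cells the effect was 0.89 ± 0.43 (adjusted p = 0.104, edgeR), and it passed the threshold without the second unstimulated *Ncoa6*-KO library (1.65, adjusted p = 0.0100) and without the first stimulated one (1.28, adjusted p = 0.0495). Between genotypes the log2 fold change was -0.53 ± 0.41 with medium alone (adjusted p = 0.685, edgeR) and -1.15 ± 0.40 with LPS + MSU (adjusted p = 0.154, edgeR). With no filter on low counts the second of these and the stimulus effect in *Ncoa6*-KO cells passed the threshold (adjusted p = 1.55e-04 and 0.00414). *Timp1* was low in the 2 *Ncoa6*-KO libraries in which the summed stromal markers were low. *Col1a1*, the gene for a chain of type I collagen, had 58.4 and 185 normalized counts in the *Ncoa6*-KO libraries without stimulus. Those with LPS + MSU had 69.3 and 323, and *Ncoa6*-sufficient libraries had 159 to 171 and 358 to 374. With LPS + MSU every one of the 12 stromal markers but *Dcn*, *Lum* and *Pdgfrb* was lower in the *Ncoa6*-KO library numbered 1. *Dcn*, *Lum* and *Pdgfrb* had 39.2, 13.1 and 137 there, against 19.6, 9.79 and 130 in the library numbered 2. Without both *Ncoa6*-KO libraries numbered 1, the log2 fold change of *Timp1* between genotypes was 0.02 with medium alone (adjusted p = 0.996) and -0.76 with LPS + MSU (adjusted p = 0.235). The part of stromal transcripts in the *Timp1* values was not tested.

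*Timp2*, an inhibitor that also takes part in activating pro-MMP2, fell with the stimulus in both genotypes. It lies on chromosome 11 (GRCm38, 118301069-118355740, minus strand). In *Ncoa6*-sufficient libraries its normalized counts were 5462 and 4148 without stimulus and 3228 and 2539 with LPS + MSU. In *Ncoa6*-KO libraries they were 6025 and 4729 without stimulus and 3810 and 3687 with LPS + MSU. The log2 fold changes with the stimulus were -0.74 ± 0.16 in *Ncoa6*-sufficient cells (adjusted p = 0.00235, edgeR) and -0.52 ± 0.16 in *Ncoa6*-KO cells (adjusted p = 0.0176, edgeR). The second call was lost without the first *Ncoa6*-KO library with medium alone (-0.33, adjusted p = 0.141) and without either *Ncoa6*-KO library with LPS + MSU (adjusted p = 0.0586 and 0.0847). Between genotypes its log2 fold change was 0.16 ± 0.16 with medium alone (adjusted p = 0.760, edgeR) and 0.38 ± 0.16 with LPS + MSU (adjusted p = 0.257, edgeR), and neither passed the threshold. With no filter on low counts the second was called higher in *Ncoa6*-KO cells (0.38, adjusted p = 0.0211), and so it was in both fits with a replicate block.

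*Timp3*, an inhibitor that binds to the extracellular matrix and also blocks ADAM proteases, was near the limit of detection. Its normalized counts were 6.75 and 11.2 without stimulus and 56.8 and 46.8 with LPS + MSU in *Ncoa6*-sufficient libraries. In *Ncoa6*-KO libraries they were 5.56 and 13.2 without stimulus and 9.15 and 15.4 with LPS + MSU. The stimulated *Ncoa6*-sufficient libraries stood above the other 6, which overlapped.

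LPS + MSU raised *Timp3* 5.77-fold in *Ncoa6*-sufficient cells (2.53 ± 0.48 on the log2 scale, adjusted p = 8.33e-04, edgeR), whereas the effect in *Ncoa6*-KO cells was 0.42 ± 0.56 (95% interval -0.82 to 1.65, adjusted p = 0.562, edgeR). With LPS + MSU *Timp3* was 4.21-fold lower in *Ncoa6*-KO cells, with a log2 fold change of -2.07 ± 0.49 (adjusted p = 0.0453, edgeR). This call was lost in 6 of the 8 fits that left out 1 library, with adjusted p up to 0.264, whereas the log2 fold change stayed between -2.49 and -1.76. Leaving out either unstimulated *Ncoa6*-sufficient library (adjusted p = 0.0700 and 0.0712) or any of the 4 stimulated libraries ended it, as did scaling to library totals (adjusted p = 0.0523). *Timp3*, like *Timp1*, was lower in the *Ncoa6*-KO library numbered 1 under both culture conditions, where the summed stromal markers were low. The part of stromal transcripts in the *Timp3* values was not tested. Without both *Ncoa6*-KO libraries numbered 1 the log2 fold change was -1.74 (adjusted p = 0.131). The difference between the 2 stimulus effects was -2.11 ± 0.74 (95% interval -3.74 to -0.48, adjusted p = 0.721, edgeR), so it is not shown that the stimulus acted on *Timp3* differently in the 2 genotypes. On chromosome 10 (GRCm38, 86300372-86349506, plus strand) *Timp3* lies inside *Syn3* of the opposite strand and shares 1733 bp of exon with it, and *Syn3* had between 2 and 5.33 counts per library.

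**Figure D2:**
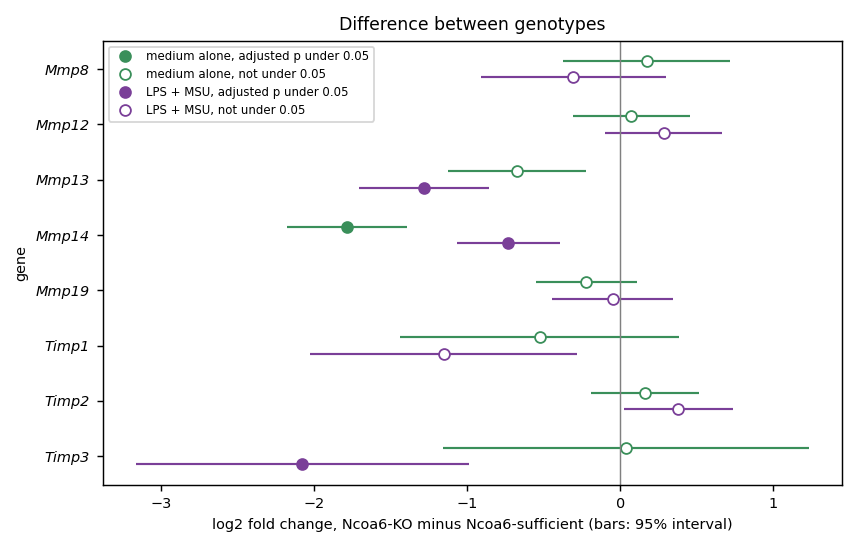
Log2 fold change of *Ncoa6*-KO against *Ncoa6*-sufficient BMDMs for each of the 8 genes with medium alone (green) and with LPS + MSU (purple), with 95% intervals as lines and filled points for an adjusted p under 0.05. With medium alone 1 gene, *Mmp14*, passes the threshold, and with LPS + MSU 3 do, *Mmp13*, *Mmp14* and *Timp3*, all below 0.

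Counted over the 8 genes, 1 was lower and none higher in unstimulated *Ncoa6*-KO BMDMs, where 1.88% of all tested genes were called in either direction and 1.3% were called lower. With LPS + MSU 3 of 8 were lower and none was higher, where 3.59% of all tested genes were called and 1.63% were called lower. With library totals 2 were lower, and with no filter on low counts 4 were lower and 1, *Timp2*, was higher. Without both *Ncoa6*-KO libraries numbered 1 this count was 1 (*Mmp14*), and with 1 library left out it ran from 0 to 3. In a fit of only the 4 stimulated libraries it was 0, with adjusted p-values of 0.0568 for *Mmp13*, 0.0636 for *Mmp14* and 0.0705 for *Timp3*. The 632 calls in all genes with LPS + MSU were 345 higher and 287 lower, and 480 higher and 218 lower when libraries were scaled to totals. The median log2 fold change of the 8 genes was -0.09 without stimulus and -0.52 with LPS + MSU, beside -0.03 and 0.00 over all tested genes. The 2 genotype comparisons share no library, but they come from the same fit, and whether they share mice is not given. The 8 genes were chosen with earlier results of these data known.

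In the comparison of culture conditions, 6 of 8 genes passed the threshold in *Ncoa6*-sufficient cells, namely *Mmp13*, *Mmp14*, *Timp1* and *Timp3* upward and *Mmp19* and *Timp2* downward. A change in either direction was called for 55.2% of all tested genes, upward for 24.7% and downward for 30.5%, so calls were common among all genes here. In *Ncoa6*-KO cells 5 of 8 passed, *Mmp12*, *Mmp13* and *Mmp14* upward and *Mmp19* and *Timp2* downward, against 53.1% of all tested genes, 25.2% upward and 27.9% downward. Without both *Ncoa6*-KO libraries numbered 1, the second count was 3. With library totals in place of TMM factors the median of all tested genes moved from -0.12 to -0.78 in *Ncoa6*-sufficient cells and from -0.07 to -0.71 in *Ncoa6*-KO cells. The calls in *Ncoa6*-sufficient cells then split into 2498 upward and 9653 downward, from 4362 and 5375, and in *Ncoa6*-KO cells into 2540 and 9313, from 4446 and 4913. Under that scaling *Mmp13* (5.51 and 4.94) and *Mmp14* (3.81 and 4.90) were still called higher, and *Mmp19* and *Timp2* lower, in both genotypes, and *Mmp8* was called lower in *Ncoa6*-KO cells.

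**Figure D3:**
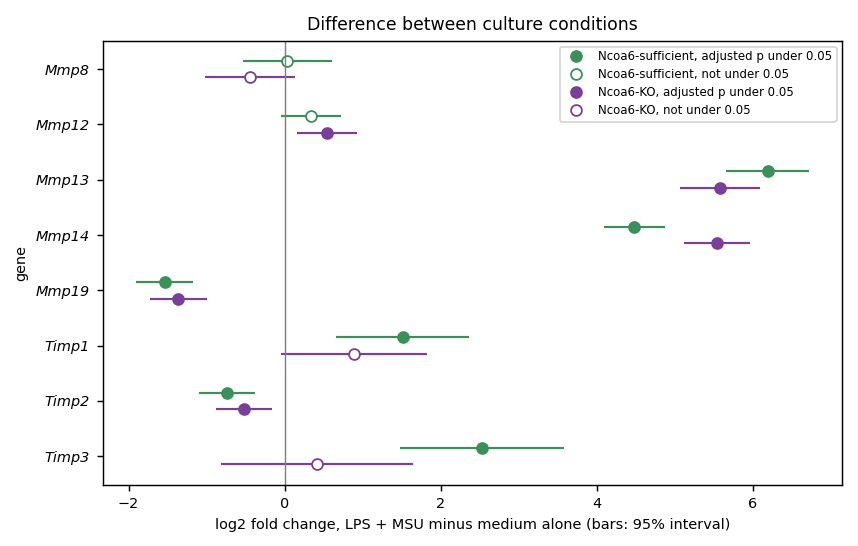
Log2 fold change of LPS + MSU against medium alone for each of the 8 genes in *Ncoa6*-sufficient (green) and *Ncoa6*-KO (purple) BMDMs, with 95% intervals as lines and filled points for an adjusted p under 0.05. *Mmp13* (6.19 and 5.58) and *Mmp14* (4.48 and 5.53) lie far to the right, and *Mmp19* (-1.54 and -1.37) and *Timp2* (-0.74 and -0.52) lie left of 0.

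The difference between the 2 stimulus effects (the interaction) passed the threshold for 0 of the 8 genes and for 0.0% of all tested genes in edgeR, where 1045 genes had an unadjusted p under 0.05. DESeq2 called 43 genes, of which 1, *Mmp14*, was among the 8.

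Levels of different genes were compared as TPM, a level per length made of counts per kb of exon scaled to the same sum in each library. No TMM factor enters TPM, so the change of a gene between culture conditions differs in TPM from that in the fit. With medium alone *Mmp12* was the most abundant of the 8 in both genotypes, at 405 ± 32.0 TPM (SD, n = 2) in *Ncoa6*-sufficient BMDMs and 440 ± 57.8 in those with the knockout. *Timp2* came next at 152 ± 32.4 and 176 ± 30.6, and *Timp3* was lowest at 0.135 ± 0.045 and 0.144 ± 0.081. With LPS + MSU *Mmp13* stood at 1316 ± 413 in *Ncoa6*-sufficient and 572 ± 76.1 in *Ncoa6*-KO cells, and *Mmp12* at 315 ± 60.3 and 406 ± 84.4. *Mmp13* was thus ahead of *Mmp12* with merged exon lengths, but in *Ncoa6*-KO cells this order turns with the length used. With the longest transcript as length, *Mmp12* was first there at 535 ± 112 and *Mmp13* second at 467 ± 62.5, with overlapping libraries, whereas in *Ncoa6*-sufficient cells *Mmp13* stayed first at 1077 ± 330 against 418 ± 83.0. *Mmp14* moved to the third place, at 156 ± 14.1 and 99.1 ± 11.6, above *Timp2* at 56.3 ± 9.60 and 77.4 ± 0.433. The first 4 places with LPS + MSU were held by the same genes in both genotypes under either length. With merged exon lengths their order was also the same, and no 2 neighbours among them overlapped between libraries.

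The lower places were less certain. In unstimulated *Ncoa6*-sufficient cells the order after *Timp2* was *Mmp13*, *Mmp19*, *Mmp14*, *Mmp8*, *Timp1* and *Timp3*, and of these neighbours only *Mmp8* and *Timp1* overlapped between libraries. In unstimulated *Ncoa6*-KO cells it was *Mmp19*, *Mmp13*, *Mmp8*, *Timp1*, *Mmp14* and *Timp3*. There *Mmp19* and *Mmp13* overlapped, as did *Mmp8* and *Timp1*, and *Timp1* and *Mmp14*. *Mmp14* thus stood in the fifth place at 11.3 ± 2.54 TPM in *Ncoa6*-sufficient cells and in the seventh at 3.37 ± 0.608 in *Ncoa6*-KO cells, where it was in the sixth, ahead of *Timp1*, with the longest transcript as length. With LPS + MSU the last places were held by *Timp1*, *Mmp8*, *Mmp19* and *Timp3* in *Ncoa6*-sufficient cells, of which *Mmp8* and *Mmp19* overlapped. In *Ncoa6*-KO cells they were held by *Timp1*, *Mmp19*, *Mmp8* and *Timp3*, where *Mmp19* overlapped with both *Timp1* and *Mmp8*.

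**Figure D4:**
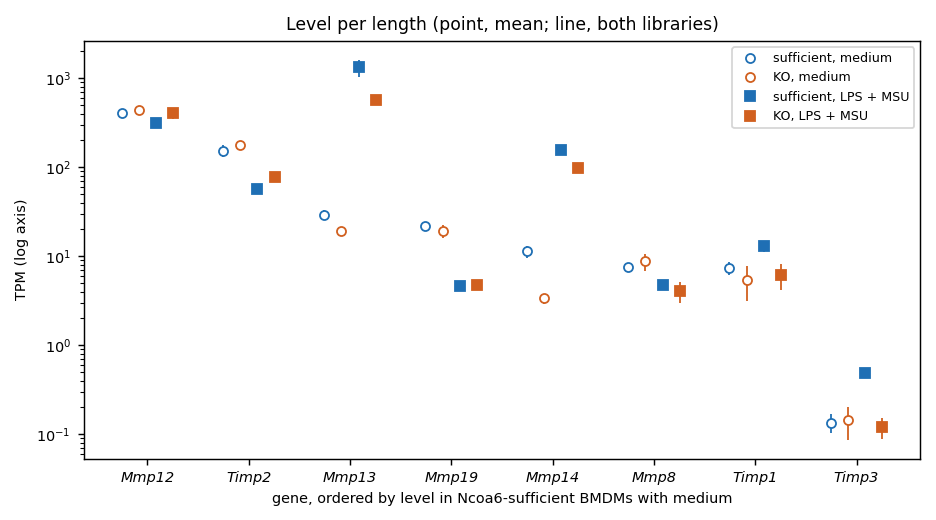
Level per length in TPM (log axis) of the 8 genes, ordered by their level in unstimulated *Ncoa6*-sufficient cells, with the mean of each group as a point and a line joining both libraries (open circles, medium alone; filled squares, LPS + MSU; blue, *Ncoa6*-sufficient; orange, *Ncoa6*-KO). Lengths are merged exon lengths. *Mmp12* and *Timp2* lead with medium alone, and *Mmp13* leads with LPS + MSU at 1316 in *Ncoa6*-sufficient cells. In *Ncoa6*-KO cells it stands at 572, above *Mmp12* at 406, an order that turns when the longest transcript is used as length.

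Summed over the 5 proteases with merged exon lengths, the level was 458 and 491 TPM in unstimulated *Ncoa6*-sufficient libraries and 450 and 530 in unstimulated *Ncoa6*-KO libraries, of which *Mmp12* made up between 83.3% and 90.7%. With LPS + MSU the sum was 2056 and 1537 in *Ncoa6*-sufficient libraries and 979 and 1192 in *Ncoa6*-KO libraries. *Mmp13* made up 78.2% and 66.6% of it in *Ncoa6*-sufficient libraries, against 52.9% and 52.5% in *Ncoa6*-KO libraries. The 3 inhibitors summed to between 136 and 201 TPM without stimulus and between 61.0 and 85.4 with LPS + MSU, without TMM factors. *Timp2* was between 80.4% and 98.4% of the inhibitor sum in every library. The ratio of the protease sum to the inhibitor sum was 2.49 and 3.61 in unstimulated *Ncoa6*-sufficient libraries and 2.24 and 3.27 in unstimulated *Ncoa6*-KO libraries, which overlapped. With LPS + MSU it was 26.2 and 25.2 in *Ncoa6*-sufficient libraries and 11.9 and 14.0 in *Ncoa6*-KO libraries, which did not overlap. With *Mmp12* left out of the protease sum, the genotypes did not overlap under either culture condition. That ratio was 0.416 and 0.466 in unstimulated *Ncoa6*-sufficient libraries and 0.255 and 0.305 in unstimulated *Ncoa6*-KO libraries. With LPS + MSU it was 22.7 and 19.3, against 7.72 and 8.51. These ratios are of transcripts of the chosen genes, no test was made on them, and they say nothing of protein or enzyme activity.

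*Mmp13*, *Mmp12* and *Mmp8* belong to a cluster of 9 protein-coding MMP genes on chromosome 9 that spans 427 kb in GRCm38. From the *Mmp13* end the order is *Mmp13*, *Mmp12*, *Mmp1b*, *Mmp3*, *Mmp10*, *Mmp8*, *Mmp27*, *Mmp20* and *Mmp7*. Neighbouring genes had unlike levels. *Mmp1b*, *Mmp3*, *Mmp20* and *Mmp7* had at most 6 counts in any library, and *Mmp10* had between 10 and 53. *Mmp27*, next to *Mmp8*, had 18.6 and 13.9 TPM without stimulus and 8.06 and 6.07 with LPS + MSU in *Ncoa6*-sufficient and *Ncoa6*-KO cells. Within the cluster the rise of *Mmp13* from 29.3 to 1316 TPM in *Ncoa6*-sufficient cells stood beside a *Mmp8* level of 7.49 and 4.72. In the fit, with TMM factors, the log2 fold change of *Mmp8* with the stimulus was 0.03 in these cells.

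**Figure D5:**
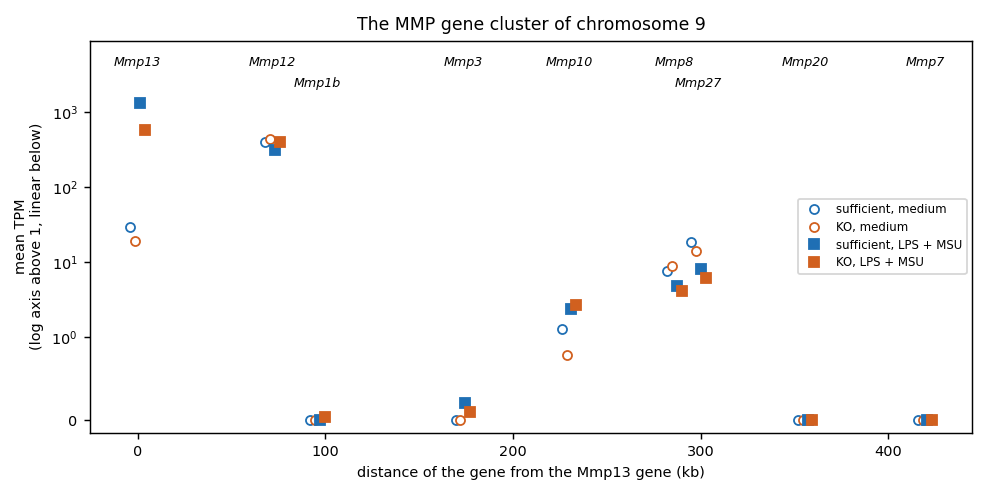
Mean TPM (log axis above 1, linear below) of the 9 MMP genes of the chromosome 9 cluster against the distance of each gene from *Mmp13* in kb (open circles, medium alone; filled squares, LPS + MSU; blue, *Ncoa6*-sufficient; orange, *Ncoa6*-KO). *Mmp13* separates the culture conditions by the widest gap, *Mmp12* stays between 315 and 440 in all 4 groups, and *Mmp20* and *Mmp7* are at 0.

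Of 17 other MMP genes, 10 could be tested, and none differed between genotypes under either culture condition. With the stimulus 5 rose and 2 fell in *Ncoa6*-sufficient cells, and 4 rose and 2 fell in *Ncoa6*-KO cells. *Mmp25*, which encodes a membrane-anchored MMP, rose by 6.61 and 6.43 on the log2 scale in *Ncoa6*-sufficient and *Ncoa6*-KO cells (adjusted p = 5.59e-09 and 6.61e-09, edgeR). *Mmp28*, or epilysin, rose by 2.39 and 2.29 (adjusted p = 3.54e-05 and 4.79e-05, edgeR), and *Mmp2*, or gelatinase A, by 1.23 and 1.08 (adjusted p = 0.0122 and 0.0293, edgeR). *Mmp27* fell, with log2 fold changes of -0.51 and -0.52 (adjusted p = 0.0219 and 0.0259, edgeR). Only 2 of 8 genes for other MMP inhibitors could be tested, and none of them was called in any comparison.

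Pro-MMPs are activated by plasmin and by proprotein convertases, and 9 of 12 genes of this group could be tested. *Plaur*, the urokinase receptor, was lower in *Ncoa6*-KO BMDMs with LPS + MSU (log2 fold change -0.86 ± 0.12, adjusted p = 0.00596, edgeR), and no other gene of the group differed between genotypes. In each genotype 6 rose and 1 fell with the stimulus. *Serpinb2*, an inhibitor of plasminogen activators, rose by 5.03 on the log2 scale in *Ncoa6*-sufficient cells (adjusted p = 4.53e-07, edgeR) and by 5.67 in *Ncoa6*-KO cells (adjusted p = 1.05e-06, edgeR). *Furin*, which cleaves the propeptide of *Mmp14*, rose by 2.00 and 1.73 (adjusted p = 9.92e-08 and 3.17e-07, edgeR). Among 17 of 22 ADAM and ADAMTS genes that could be tested, none differed between genotypes, 5 rose and 4 fell with the stimulus in *Ncoa6*-sufficient cells, and 3 rose and 4 fell in *Ncoa6*-KO cells. *Adamts4*, an aggrecanase, rose from a mean of 1.93 to 1769 normalized counts in *Ncoa6*-sufficient and from 0.787 to 2420 in *Ncoa6*-KO cells (adjusted p = 2.86e-10 and 2.17e-10, edgeR). *Adam17*, the TNF-converting enzyme that TIMP3 inhibits, rose by 1.69 and 1.85 (adjusted p = 2.00e-07 and 1.04e-07, edgeR).

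Of 20 listed AP-1 and ETS factor genes, some of which encode known regulators of MMP promoters, 1 differed between genotypes. *Mafg*, a small Maf protein, was higher in *Ncoa6*-KO cells with LPS + MSU (log2 fold change 0.58 ± 0.12, adjusted p = 0.0316, edgeR). With the stimulus 12 rose and 5 fell in *Ncoa6*-sufficient cells and 12 rose and 4 fell in *Ncoa6*-KO cells. *Batf2* rose by 5.30 and 5.55 on the log2 scale, *Batf* by 4.13 and 4.19 and *Ets2* by 2.90 and 2.75, whereas *Ets1* fell with log2 fold changes of -3.50 and -3.52 in *Ncoa6*-sufficient and *Ncoa6*-KO cells (all adjusted p at or under 4.58e-07, edgeR). Of 13 genes for receptors and partners of MMPs and TIMPs, *Itgb3*, the integrin β3 chain, was higher in *Ncoa6*-KO cells under both culture conditions (log2 fold changes 1.36 and 1.56, adjusted p = 0.00463 and 0.00518, edgeR). *Cav1*, caveolin-1, was higher with LPS + MSU (0.39 ± 0.08, adjusted p = 0.0280, edgeR). With the stimulus 9 of the 13 rose and 1 fell in *Ncoa6*-sufficient cells, and 9 rose and 2 fell in *Ncoa6*-KO cells. *Kdr*, a VEGF receptor that TIMP3 binds, rose by 3.46 and 3.54 on the log2 scale, and *Sdc4*, syndecan-4, by 3.08 and 3.31 (all adjusted p at or under 3.09e-07, edgeR).

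Across the 8 libraries the log2 values of *Mmp13* and *Mmp14* had a Pearson correlation of 0.982, and those of *Mmp13* and *Mmp19* one of -0.948. *Timp1* and *Timp3* had a correlation of 0.904. These values describe 8 libraries that share their culture conditions and their scaling, and no test was made on them. Of 11212 genes searched, the 3 whose values over the 8 libraries were most like those of *Mmp14* were *Saa3*, *F10* and *Igsf6* (correlations of 1.00, 0.999 and 0.999), and those most like *Mmp13* were *Jarid2*, *Fam72a* and *Arpc5* (0.999, 0.999 and 0.998). For *Timp1* they were *Crk*, *Igfbp7* and *Gm37401* (0.972, 0.971 and 0.962), and for *Mmp19* *Ttyh3*, *Plxnb2* and *Irak4* (0.998, 0.998 and 0.997). *Timp2* was followed most closely by *Rnase4* (0.993), *Mmp12* by *Lrrfip2* (0.979), *Timp3* by *Chordc1* (0.954) and *Mmp8* by *Mrps5* (0.888). The genes most like *Mmp8* therefore followed it less closely than those most like any of the other members.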

How the data were processed

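RNA of BMDMs was sequenced as stranded poly(A) libraries, in 2 libraries from different mice for each of the 4 groups. According to the submitters' processing notes, reads were aligned with STAR 2.7.3a to GRCm38, and the authors deposited expected counts per gene from RSEM 1.3.3 without normalization. Of the 50615 genes, 50295 were matched to a symbol and exons with a GENCODE annotation of GRCm38. The authors' own strand setting is not given in the sources used here.

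Expected counts were rounded and genes summing to less than 10 counts in the 8 libraries dropped. A single model of the 4 groups was fitted in edgeR 4.0.16 (R 4.3.3) with TMM factors, and the quasi-likelihood test was used, with 4 residual degrees of freedom per gene before sharing of the spread. P-values are two-sided and adjusted over all 17625 genes by the Benjamini-Hochberg method, with calls under 0.05. The smallest exact permutation p of 2 libraries against 2 is 0.333. Normalized counts are scaled to the mean effective library size. Levels per length used merged exon lengths and unrounded counts. The text names all 8 members, of each gene list at most 4 called genes with the largest change and a mean of at least 50 normalized counts, and the 3 genes most correlated with each member. The values of 1 listed gene are not reported here. The members and lists were chosen with earlier results of these data known. Alternatives were DESeq2 1.42.0, its size factors in edgeR, limma-voom 3.58.1, other filters, a replicate block, the 4 libraries of a comparison alone, each library left out and the longest transcript as length. Library totals without TMM and the fit without both *Ncoa6*-KO libraries numbered 1 were added after seeing the data. A group left with 1 library was assumed to vary like the others. The scripts were tested on simulated data.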

Additional observations from a re-analysis of the deposited data

How the results depend on the processing

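Both stimulus effects of *Mmp13*, *Mmp14* and *Mmp19*, the fall of *Timp2* and the rise of *Timp3* in *Ncoa6*-sufficient cells, and the lower *Mmp14* of unstimulated *Ncoa6*-KO cells kept their direction and call under all 18 alternatives. Over all genes, the genotype comparison without stimulus called 331 genes, 1152 with no filter, and 1023 and 1893 with a replicate block across all groups or within each genotype. With LPS + MSU it called 632, 1611 with no filter, 1532 and 2594 with the 2 blocks, and 139 with only the 4 libraries compared. The interaction called 43 genes in DESeq2, 269 with no filter, and 86 and 444 with the blocks. Members lower without stimulus were 2 in DESeq2, with no filter, with both blocks and with the 4 libraries alone, the second being *Mmp13*. With LPS + MSU 5 members were called with no filter (*Timp1* lower and *Timp2* higher beside the 3) and 6 with the block within each genotype, 4 lower (*Timp1* added) and 2 higher, *Timp2* (0.39, adjusted p = 8.49e-04) and *Mmp12* (0.28, adjusted p = 0.00618). The block across all groups also called *Timp2* higher (0.39, adjusted p = 0.0177). The count was 0 with the 4 libraries alone and 1 without both *Ncoa6*-KO libraries numbered 1, where the stimulus called 3 in *Ncoa6*-KO cells. The interaction called 1 member, *Mmp14*, in DESeq2, with no filter and with the block across groups, and 2 with the block within each genotype, the other being *Mmp13*. Equal numbers are not said to mark the same mouse, and their deviations correlated by 0.310 and 0.369 between culture conditions within a genotype and by 0.052 to 0.199 otherwise. With the longest transcript as length, 1 of 28 pairs of members changed order in stimulated *Ncoa6*-sufficient and in both kinds of *Ncoa6*-KO cells.

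With 1 library left out, calls over all genes ran from 22 to 351 and from 49 to 765 between genotypes, from 8228 to 9810 and from 7776 to 9260 between culture conditions, and from 0 to 16 for the interaction. Member calls with LPS + MSU between genotypes ran from 0 to 3, and 0 to 1 pairs of members changed order. Effects that changed sign had not been called, but for *Mmp12* in *Ncoa6*-KO cells. With library totals they were *Mmp19* between stimulated genotypes (0.022), the stimulus effects of *Mmp8* (-0.64) and *Mmp12* (-0.33) in *Ncoa6*-sufficient cells and those of *Mmp12* (-0.087) and *Timp3* (-0.21) in *Ncoa6*-KO cells. Without both *Ncoa6*-KO libraries numbered 1 they were *Timp1* (0.017) and *Timp2* (-0.021) without stimulus and *Mmp8* (0.031) with it. *Timp3* without stimulus gave -0.070 in limma-voom and -0.025 with the block within each genotype. With 1 library left out, genotype effects without stimulus ran from -0.17 to 0.46 for *Mmp8*, -0.072 to 0.20 for *Mmp12*, -0.50 to 0.0036 for *Mmp19*, -1.29 to 0.017 for *Timp1*, -0.022 to 0.38 for *Timp2* and -0.66 to 0.56 for *Timp3*, and that of *Mmp8* with LPS + MSU from -0.74 to 0.014. Stimulus effects ran from -0.046 to 0.13 for *Mmp8* in *Ncoa6*-sufficient and from -0.11 to 1.12 for *Timp3* in *Ncoa6*-KO cells, and interactions from -0.041 to 0.37 for *Mmp12*, -0.054 to 0.45 for *Mmp19* and -1.20 to 0.14 for *Timp1*. The cause was not tested. *Timp3* had only 7 to 41 counts per library, and the part of depth in its values was not tested.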
